A study of Drosophila melanogaster with 3 samples.

Results

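Neural fate genes, the regulators that set aside neural precursors, carry neuroblasts through their divisions and fix the identity of neurons and glia, were examined for binding of the CG12219 protein. The 35 genes were taken by name and not by a threshold on these values, but the list was drawn up with earlier results of these data known. They comprise 14 proneural and Notch genes, 15 neuroblast genes and 6 neuron and glia genes, out of 13968 protein-coding genes in the annotation. All 35 were found in it, 34 under the listed symbol and Dl under the symbol Delta. The data are ChIP-seq peak lists from 3 biological replicates of 1 group. The embryos were whole Drosophila melanogaster of both sexes, collected between 0 and 18 h, of a transgenic line in which CG12219 is fused at its C-terminus to GFP. All 3 replicates share this line, and untagged embryos and a mock immunoprecipitation were not analysed here. A free-text line in the labels speaks of an input control, whereas the assay name, the antibody field and the peak lists describe immunoprecipitated material, and the samples were treated as such.

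In the fly embryo, proneural proteins of the basic helix-loop-helix (bHLH) class give clusters of ectodermal cells the competence to become neural. Notch signalling then restricts that fate: the ligand Delta on the emerging precursor activates Notch in its neighbours, where the repressors of the Enhancer of split (E(spl)) complex are switched on. The selected neuroblast divides asymmetrically, passes determinants to its smaller daughter and expresses a succession of temporal factors, and its progeny become neurons or glia.

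The list filtered by irreproducible discovery rate (IDR) held 4187 peaks, and rank 1 is the peak with the highest signal in the authors' units. These 4187 were also the highest-signal calls of the list pooled over the 3 replicates. An IDR peak therefore need not rank high in every replicate. A peak was given to a gene when its summit lay within 500 bp of any transcription start site (TSS) of the gene, inside the gene, or closer to that gene's TSS than to any other. By at least 1 of these rules 14 of the 35 neural fate genes had an IDR peak (40.0%, exact binomial interval 23.9 to 57.9%), beside 22.3% of all protein-coding genes. They were 4 of 14 proneural and Notch genes, 7 of 15 neuroblast genes and 3 of 6 neuron and glia genes. The 14 genes had 23 peaks between them. Of these, 6 lay at a start site, 12 inside a gene and 15 nearest to the gene's TSS, with some counted under several rules. The strongest were at elav (rank 90), brat (184) and N (201), followed by D (466), E(spl)m7-HLH (529), grh (596) and E(spl)m3-HLH (794). In whole embryos, strong occupancy in few cells and weak occupancy in many cannot be told apart. Depth of the libraries is unknown, and the intervals cover counting error only. Long genes hold more summits, so the inside rule depends on gene length, and the count of 14 was not split by length. N, pros and insc had a peak by that rule alone.

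The sequence under these peaks is shown for 10 genes, as the 101 bp centred on the summit of the gene's strongest peak, read 5′ to 3′ on the strand of the gene. Capitals mark runs of 6 or more bases made of A and T alone, because short A+T-rich words led the sequence of the IDR peaks in general. The bases are from the RefSeq copy of the dm6 genome.
elav (chrX:523427-523527, - strand): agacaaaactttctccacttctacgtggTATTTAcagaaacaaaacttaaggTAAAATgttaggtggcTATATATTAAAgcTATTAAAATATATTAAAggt
scrt (chr3L:3983552-3983652, + strand): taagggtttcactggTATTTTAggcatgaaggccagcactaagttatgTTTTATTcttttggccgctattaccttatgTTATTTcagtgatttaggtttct
nerfin-1 (chr3L:907827-907927, + strand): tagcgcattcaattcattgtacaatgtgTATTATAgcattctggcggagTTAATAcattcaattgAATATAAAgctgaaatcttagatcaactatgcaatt
Those are neuronal genes; the neuroblast genes follow.
brat (chr2L:19165104-19165204, + strand): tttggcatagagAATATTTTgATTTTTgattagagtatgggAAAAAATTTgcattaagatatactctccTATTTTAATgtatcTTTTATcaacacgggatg
D (chr3L:14174338-14174438, - strand): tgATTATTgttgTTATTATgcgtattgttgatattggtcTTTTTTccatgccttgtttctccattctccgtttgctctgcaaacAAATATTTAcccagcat
dan (chr3R:25178670-25178770, + strand): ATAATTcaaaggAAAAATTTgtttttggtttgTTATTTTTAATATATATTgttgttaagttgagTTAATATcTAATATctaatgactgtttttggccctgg
The last set holds the Notch receptor gene and genes of the E(spl) complex.
N (chrX:3162494-3162594, + strand): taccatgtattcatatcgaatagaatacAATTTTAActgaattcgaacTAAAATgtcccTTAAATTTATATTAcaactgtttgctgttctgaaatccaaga
E(spl)m7-HLH (chr3R:26036606-26036706, + strand): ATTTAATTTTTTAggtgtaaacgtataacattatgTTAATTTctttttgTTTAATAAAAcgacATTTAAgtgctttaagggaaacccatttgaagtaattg
E(spl)m3-HLH (chr3R:26021344-26021444, + strand): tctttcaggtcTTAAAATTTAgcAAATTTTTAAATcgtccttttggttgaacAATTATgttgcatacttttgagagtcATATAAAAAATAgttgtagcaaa
E(spl)mdelta-HLH (chr3R:25997238-25997338, + strand): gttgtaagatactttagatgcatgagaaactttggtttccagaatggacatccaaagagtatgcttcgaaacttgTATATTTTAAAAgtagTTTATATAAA
Their A+T content ran between 64.4% at scrt and 76.2% at both dan and E(spl)m7-HLH. The longest A/T run was 18 bp at dan and 17 bp at elav, while scrt had none over 7 bp.

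**Figure D1:**
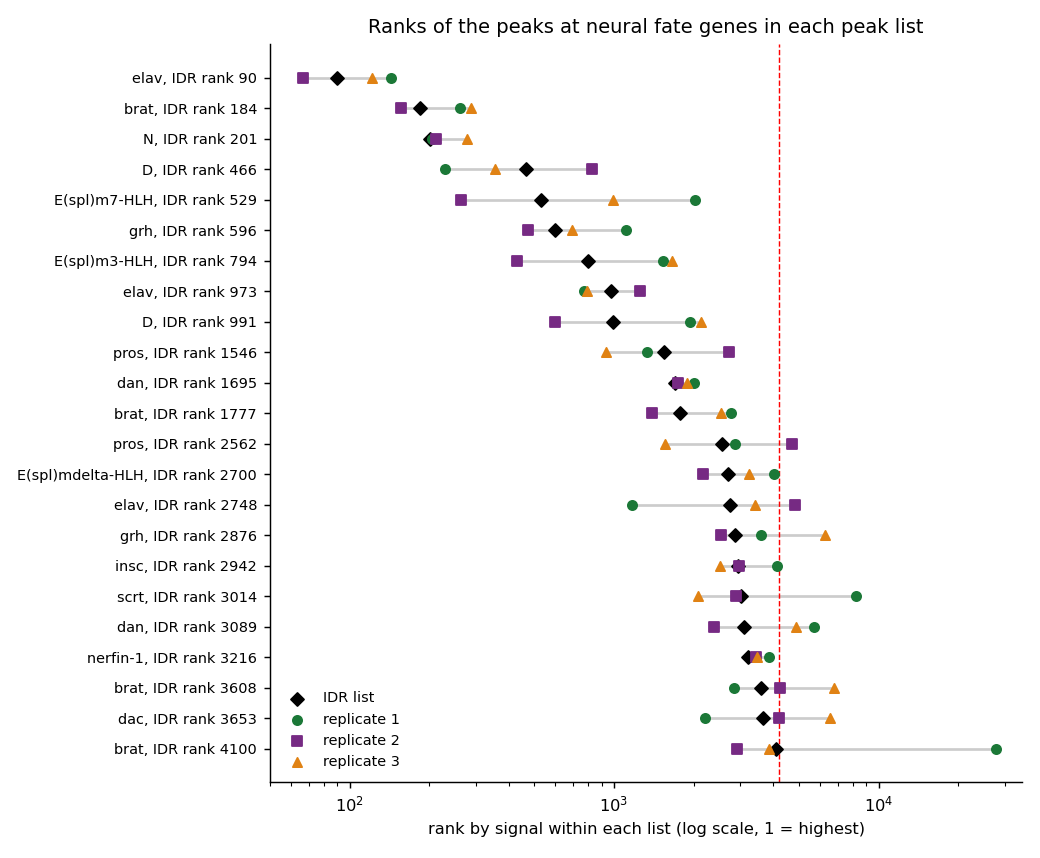
Rank of each of the 23 IDR peaks at neural fate genes (rows) in the IDR list and in the 3 replicate lists, on a log scale where 1 is the highest signal. Grey lines span the replicates and the dashed line marks rank 4187; the elav, brat and N peaks at the top stayed within rank 288 in every replicate, and the lowest brat peak reached rank 27902 in replicate 1.

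The plot of ranks in each list shows how far the replicates agreed on these peaks. All 23 peaks had a call of any rank within 250 bp in each replicate. Each replicate list holds 30000 calls with background included, and the weakest match was at rank 27902. The same share for all IDR peaks is not given here. Among the 4187 highest-signal calls, 20 of the 23 were present in replicate 1, 19 in replicate 2 and 19 in replicate 3. For all IDR peaks the shares were 76.6%, 86.7% and 83.2% in replicates 1, 2 and 3. All 3 replicates held 15 of the 23 among their top calls (65.2%), beside 60.0% of all IDR peaks. The median rank of the 23 peaks in the IDR list was 1777, beside 2094 for all IDR peaks, and 12 of them were among the 2093 with the highest signal. These peaks came from a list built on the same replicates, so their presence in each replicate is a description.

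Among the proneural genes, ac, sc, l(1)sc and ase, bHLH activators that lie together in the achaete-scute complex on chromosome X, had no IDR peak. None of the 4 had a call of any rank within 500 bp of its TSS, in the pooled list of 30000 calls or in any replicate. Over the 93.1 kb between the start of ac and the end of ase there was no IDR peak, beside 3.04 per 100 kb over the 7 chromosomes used. The pooled list had 4 calls there (4.29 per 100 kb, beside 21.8 per 100 kb over the 7 chromosomes used), the best at rank 18519. Replicates 1, 2 and 3 had 6, 4 and 4 calls in this stretch, with best ranks of 14697, 13519 and 15900. The closest IDR summit lay 24609 bp from the TSS of ac, 50638 bp from that of sc, 64299 bp from that of l(1)sc and 33269 bp from that of ase. The remaining proneural gene, ato, which founds chordotonal organs and photoreceptors, lies on chromosome 3R. It had a pooled call at rank 20608, found at the TSS in replicate 1 alone, at rank 9565.

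The Notch ligand and receptor genes differed in where calls lay. N, the receptor gene, held an intronic peak at chrX:3162388-3162667 with a signal of 959.0 (rank 201), 27674 bp downstream of the N TSS. It ranked 205, 213 and 277 in replicates 1, 2 and 3. The nearest TSS to that summit, 10596 bp away, belongs to CG18508. At its own TSS, N had only weaker calls, ranked 5247 in the pooled list and 8038, 3577 and 6371 in the replicates. Dl, the ligand gene, had no IDR peak within 77003 bp of its TSS. Its best call at the TSS, at -5 bp (negative offsets being upstream), ranked 9819 in the pool and 6563 and 7246 in replicates 1 and 3, with no call there in replicate 2.

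The complex that holds the E(spl) bHLH genes, which encode repressors switched on by Notch, was the densest stretch counted. The 43.4 kb between the start of E(spl)mdelta-HLH and the end of E(spl)m8-HLH held 6 IDR peaks (13.8 per 100 kb, beside 3.04 per 100 kb over the 7 chromosomes) and 31 pooled calls (71.4 beside 21.8 per 100 kb). Calls there numbered 32, 27 and 26 in replicates 1, 2 and 3. The plot of calls along both complexes sets this stretch beside the achaete-scute complex. Only some of the 7 bHLH genes had an IDR peak at the TSS. E(spl)m7-HLH, E(spl)m3-HLH and E(spl)mdelta-HLH had one, and E(spl)m5-HLH, E(spl)m8-HLH, E(spl)mbeta-HLH and E(spl)mgamma-HLH had none. The E(spl)mdelta-HLH peak lay upstream of that gene's start, outside the 43.4 kb counted. The 6 peaks within the stretch include those at E(spl)m7-HLH and E(spl)m3-HLH. The rest lay nearest to E(spl)malpha-BFM, E(spl)m2-BFM or lncRNA:CR43644. Genes of the complex are close neighbours, so their peaks are not independent observations.

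**Figure D2:**
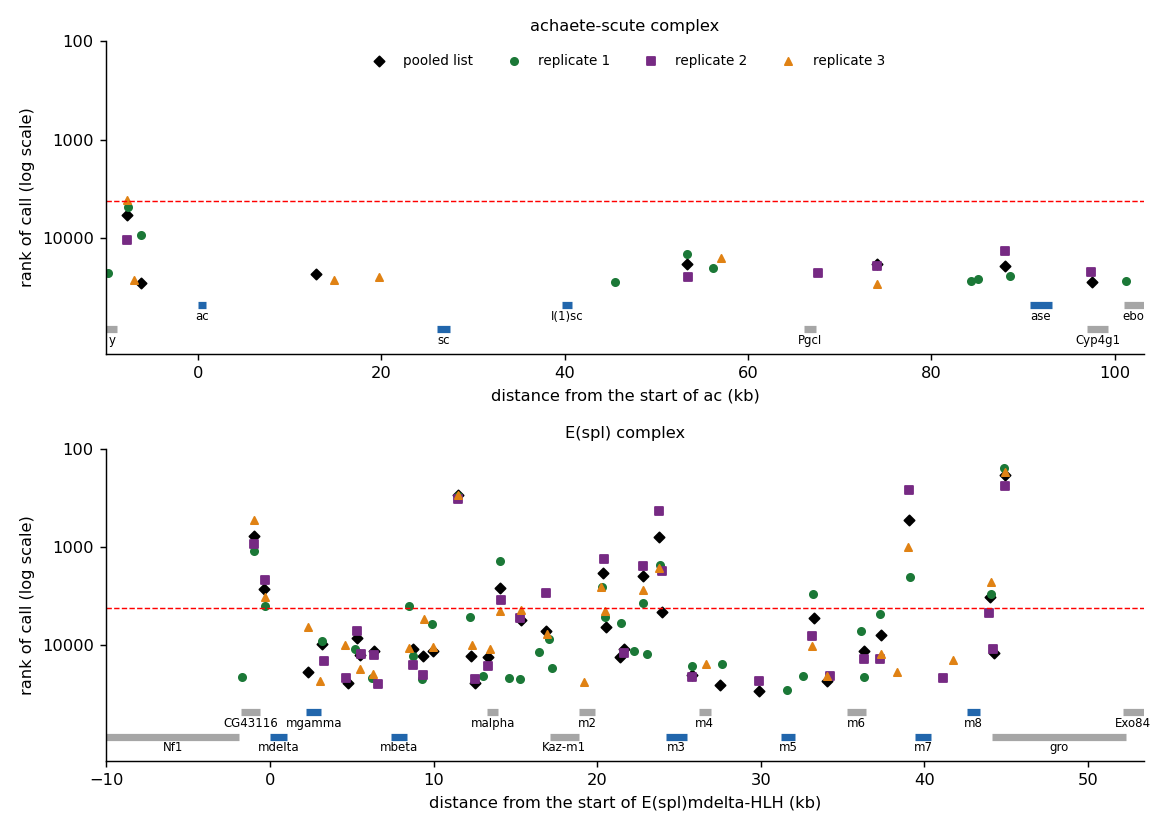
Calls along the achaete-scute complex (top) and the E(spl) complex (bottom), plotted as distance from the first gene's start in kb against rank on a log scale with strong calls at the top, for the pooled list and the 3 replicates. Bars mark protein-coding genes, blue for the neural fate genes and grey for others, and the dashed line marks rank 4187; between ac and ase all calls lie below the line, and the E(spl) complex has 6 pooled calls above it between E(spl)mdelta-HLH and E(spl)m8-HLH. The gene CG32816, which spans the whole stretch between ac and ase, is not drawn.

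The E(spl)m7-HLH peak (chr3R:26036503-26036806, signal 608.3) had its summit at -382 bp. It ranked 2020, 265 and 994 in replicates 1, 2 and 3, so replicate 2 placed it highest. The E(spl)m3-HLH peak (chr3R:26021199-26021588, signal 474.2) lay at -429 bp, and at -318 bp from the TSS of lncRNA:CR43644, which was the nearest. Its ranks of 1529, 429 and 1654 again put replicate 2 first. The E(spl)mdelta-HLH peak (chr3R:25997093-25997482, signal 213.7, rank 2700) lay at -333 bp and also at -292 bp from the divergent gene CG43116, with ranks of 4011, 2169 and 3248. The strongest peak within the complex, at rank 296, lay nearest to E(spl)malpha-BFM, a Bearded family gene. The weaker genes of the complex varied between replicates. E(spl)mbeta-HLH had a TSS call at ranks 4034, 16013 and 10758 in replicates 1, 2 and 3, E(spl)mgamma-HLH one in replicate 3 alone (6575), E(spl)m5-HLH one in replicate 1 alone (20355), and E(spl)m8-HLH none.

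Of the 15 neuroblast genes, 7 had an IDR peak: brat, D, grh, pros, dan, insc and dac. A peak lay inside 5 of the 15 genes (33.3%, beside 11.9% of all protein-coding genes), nearest to the TSS of 5 (33.3%, beside 17.6%) and at a TSS of 1 (6.67%, beside 14.3%). The 5 genes with a peak inside were all longer than 10 kb. Of all protein-coding genes, 42.4% of those of 10 to 50 kb and 58.8% of longer ones had such a peak. The replicates differed at the start sites of neuroblast genes, with a top call at a TSS of 5 of the 15 in replicate 1 (33.3%, beside 14.6%) and of 1 each in replicates 2 and 3 (6.67%, beside 14.0% and 14.4%). The gene brat, whose protein represses translation and is handed to the differentiating daughter cell, had 4 peaks, the most of any member. The strongest (chr2L:19165007-19165295, signal 992.7, rank 184) lay in an intron at -713 bp from an internal brat TSS, with ranks of 261, 156 and 288. A weaker peak at rank 3608 lay in the 5′ UTR, 316 bp downstream of that gene's nearest TSS, and ranked 2846, 4238 and 6792. The other two, at ranks 1777 and 4100, were intronic and nearer to the TSS of Polr1D. Replicate 1 stood apart at the last of these, with rank 27902 against 2907 and 3843 in replicates 2 and 3.

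The SoxB factor genes SoxN and D, which act early in the neuroectoderm, differed from each other. D had a pair of intergenic peaks downstream of the gene, 3149 bp (chr3L:14174262-14174533, signal 644.8, rank 466) and 4776 bp (rank 991) from its TSS. The first ranked 230, 822 and 355 in replicates 1, 2 and 3, and the second 1942, 600 and 2137, so replicate 2 ordered them the other way round from replicates 1 and 3. SoxN had no IDR peak. Its TSS calls ranked 7360 in the pool and 8186, 4865 and 4711 in the replicates, all outside the top calls.

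Genes of the temporal series and late neuroblast factors were unevenly represented. The gene grh, for the Grainyhead factor of late neuroblasts and epidermis, had intronic peaks at rank 596 (chr2R:17804842-17805055, signal 566.9, ranks 1107, 475 and 694 in the replicates), 2061 bp downstream of a TSS, and at rank 2876 (3587, 2543 and 6284), at -567 bp from another. In contrast the POU factor genes nub and pdm2 and the zinc finger gene cas had no IDR peak. The best TSS calls of nub ranked 4877, 7703 and 6614 in replicates 1, 2 and 3 and those of pdm2 3748, 10707 and 29977. For cas there was no call of any rank at the TSS in any list, and the closest pooled call lay 11111 bp away.

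Among genes of asymmetric division, pros encodes a homeodomain factor segregated to the daughter cell and mira the scaffold that carries it. Inside pros, the longest of the 35 genes at 79148 bp, lay a peak in the 3′ UTR (chr3R:11392917-11393083, rank 1546, ranks 1328, 2714 and 931 in the replicates) and an intronic one (rank 2562, ranks 2868, 4716 and 1555). The 3′ UTR peak lay 20224 bp downstream of the nearest pros TSS and closer to the mRpL40 TSS. The intronic peak lay 3496 bp downstream of a pros TSS and closer to the TSS of lncRNA:CR46008. Replicate 2 placed both lowest. The 3′ UTR peak had the lowest A+T content of the 23, at 45.5%. The gene insc, whose product orients the spindle, had an intronic peak at rank 2942 (chr2R:20830770-20831159, ranks 4114, 2971 and 2525). It lay 5063 bp downstream of the insc TSS, was also inside sktl and was closer to the sktl TSS. At its own TSS insc had calls at ranks 2065, 3545 and 4905, among the top calls of replicates 1 and 2. There was no IDR peak at mira, which had TSS calls in replicate 2 alone, the best at rank 15414.

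The nuclear factor genes dan and danr, paralogues that lie near each other, and dac, used in the eye and mushroom body, had only distal peaks or none. At dan the peaks lay 5663 bp upstream (chr3R:25178525-25178914, rank 1695), in an intron of lobo, and 15978 bp upstream (rank 3089). The nearer ranked 2002, 1738 and 1883 in the replicates and the farther 5713, 2379 and 4866. In dac an intronic peak at rank 3653 (chr2L:16476629-16477018) lay 9174 bp from the TSS and ranked 2216, 4209 and 6527. No IDR peak was assigned to danr, nor to dpn and wor, which encode a Hes-type bHLH repressor and a Snail-family zinc finger protein of neuroblasts. At the dpn TSS replicate 1 stood apart, with ranks of 1926, 19837 and 21536 in replicates 1, 2 and 3.

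Of the 6 neuron and glia genes, 3 had an IDR peak, and elav had the highest-ranked one of all 35. The gene elav, for the RNA-binding protein used as a marker of neurons, had its strongest peak (chrX:523321-523666, signal 1400.3, rank 90) at -251 bp, inside an intron of arg and at the shared start of elav and lncRNA:enrr. It ranked 144, 67 and 122 in replicates 1, 2 and 3. Further elav peaks lay 611 bp downstream of that TSS (rank 973, ranks 767, 1254 and 788) and 1315 bp upstream (rank 2748, ranks 1171, 4845 and 3422). The related gene fne had no IDR peak, and its TSS calls ranked 29062, 27521 and 9490.

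The zinc finger genes scrt and nerfin-1, active in young neurons, had 1 peak each. The scrt peak (chr3L:3983407-3983796, signal 197.9, rank 3014) lay at -294 bp and ranked 8206, 2886 and 2086, so it was outside the top calls of replicate 1. The nerfin-1 peak (chr3L:907682-908071, signal 190.5, rank 3216) lay at -1235 bp and ranked 3846, 3450 and 3467, in the top calls of all 3. For the glial genes there was no IDR peak. The best TSS calls of repo, the homeodomain gene of lateral glia, ranked 9350, 17805 and 13902, and those of gcm, the glial switch gene, 6185 and 11216 in replicates 1 and 2, with none in replicate 3.

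**Figure D3:**
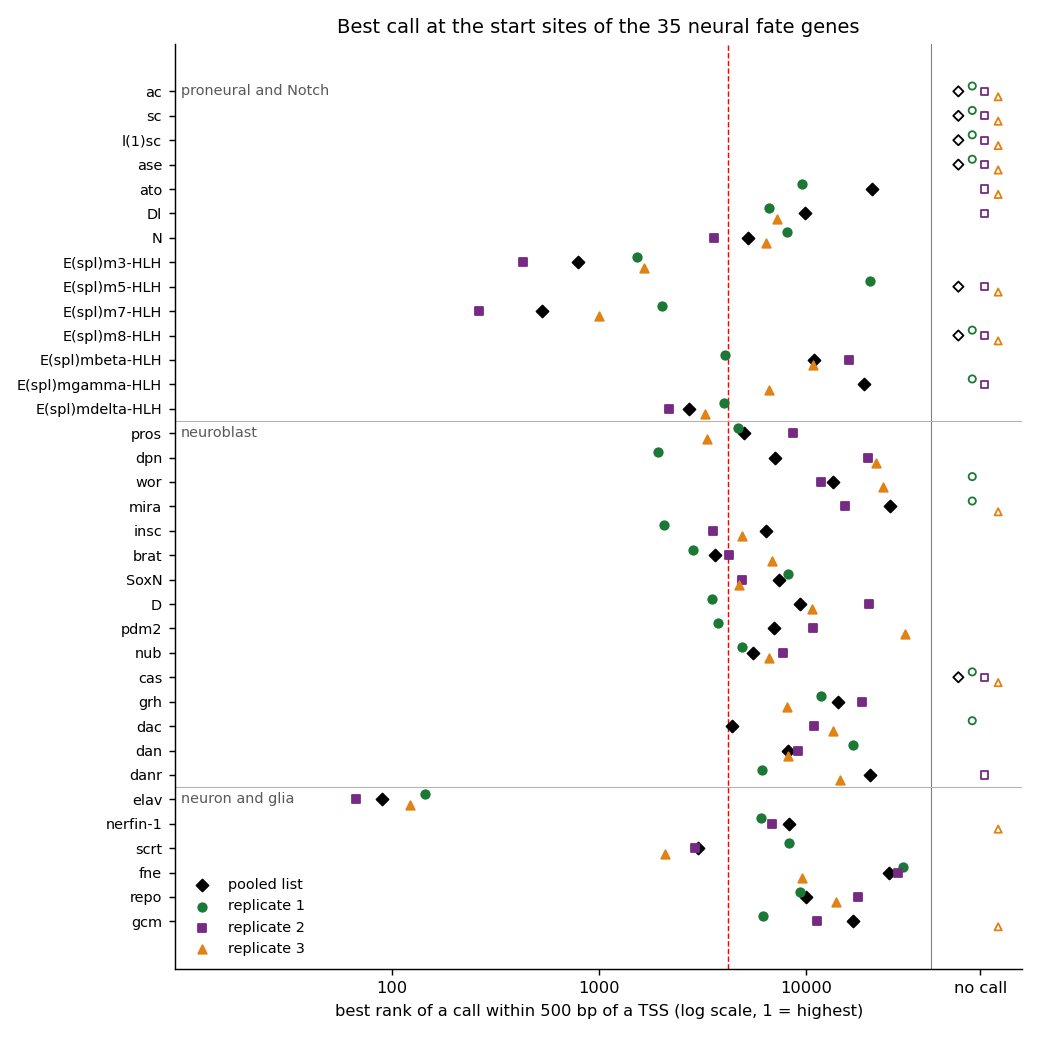
Best rank of a call within 500 bp of a TSS for each of the 35 genes (rows, grouped by role), in the pooled list and the 3 replicates, on a log scale where 1 is the highest signal; open symbols at the right mean no call. The dashed line marks rank 4187, and elav stands alone at the left, with pooled rank 90, while ac, sc, l(1)sc, ase, E(spl)m8-HLH and cas have no call in any list.

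Start sites of neural fate genes carried an IDR peak in 6 of 35 cases (17.1%, exact binomial interval 6.56 to 33.6%), beside 14.3% of all protein-coding genes, a share near the background. The 6 genes were elav, E(spl)m7-HLH, E(spl)m3-HLH, E(spl)mdelta-HLH, scrt and brat. Their summits all stood off from the TSS, at distances of 251 to 429 bp, 5 upstream and 1 downstream, with a median of 324 bp. For all 1996 protein-coding genes with such a peak the median distance was 153 bp, and 73.6% had it within 250 bp, where none of the 6 did. The elav summit was just beyond that limit. With a window of 1000 bp the count became 7, by the addition of grh, beside 17.3% of all protein-coding genes.

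Weak calls at start sites were frequent. In the pooled list, which includes background calls, 28 of the 35 genes had a call of any rank at a TSS (80.0%, interval 63.1 to 91.6%), beside 44.8% of all protein-coding genes. By role they were 8 of 14 proneural and Notch genes, 14 of 15 neuroblast genes and 6 of 6 neuron and glia genes. Genes with several start sites have more chances. In a comparison chosen after the values were seen, 18 of 25 neural fate genes with a single TSS had such a call, beside 36.0% of all single-TSS genes, and 10 of 10 with more did, beside 69.2%. Of the 28, 22 had their best call outside the IDR list, beside 4259 of the 6255 protein-coding genes with any such call at a TSS. Of these 22, 10 had it between ranks 4187 and 8374. The closest to the limit was dac at rank 4363, followed by pros at 5021 and N at 5247, while brat at rank 3608 was the last inside it. These 22 calls lay nearer to the TSS than the 6 IDR summits, at a median of 110 bp and with 15 within 250 bp (68.2%). That was near the background, since such calls of all protein-coding genes had a median of 139 bp, with 71.5% within 250 bp. The 22 calls also differed from the 6 IDR summits in base composition, with a median A+T content of 46.5% against 71.3%. Over all protein-coding genes the medians were 57.4% and 66.3%. No call of any rank at a TSS was found in any list for 6 of the 35 neural fate genes, beside 36.7% of all protein-coding genes.

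Replicates differed at these start sites. Among their top calls, replicate 1 held a call at the TSS of 10 of the 35 genes (28.6%, beside 14.6% of all protein-coding genes). Replicate 2 held 7 (20.0% beside 14.0%) and replicate 3 held 6 (17.1% beside 14.4%). In all 3 replicates the same 4 genes had one: elav, E(spl)m7-HLH, E(spl)m3-HLH and E(spl)mdelta-HLH. The genes insc and scrt had one in 2 replicates each, N in replicate 2 alone and pros in replicate 3 alone. In replicate 1 alone there were 5, at dpn, brat, D, pdm2 and E(spl)mbeta-HLH. At those 5 the A+T content around the replicate 1 summits was 35.6% at dpn, 44.6% at D, 48.5% at pdm2, 39.6% at E(spl)mbeta-HLH, and 60.4% and 44.6% at the pair of brat summits. The top calls of replicate 1 averaged 61.0% A+T, those of replicate 2 66.6% and those of replicate 3 63.9%, taken over all top calls, at a TSS or not. The share of all protein-coding genes with a top TSS call in replicate 1 alone, or in all 3, is not given here. Whether base composition had a part in the calls found in replicate 1 alone was not tested.

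Inside the gene, 7 of 35 neural fate genes had an IDR summit (20.0%, interval 8.44 to 36.9%), beside 11.9% of all protein-coding genes. Gene length bears on this count, since neural fate genes had a median length of 3322 bp and all protein-coding genes 2164 bp. Under 2 kb the count was 0 of 12 (upper bound 26.5%, beside 2.25% of all genes of that length), and for 2 to 10 kb it was 0 of 11 (upper bound 28.5%, beside 11.4%). For 10 to 50 kb it was 6 of 11 (54.5%, interval 23.4 to 83.3%, beside 42.4%), and the 1 gene over 50 kb, pros, had a peak, as did 58.8% of such genes. So all 7 genes were longer than 10 kb. By replicate, the top calls lay inside 10 (28.6%), 7 (20.0%) and 6 (17.1%) of the 35 genes in replicates 1, 2 and 3, beside 12.5%, 11.7% and 11.8% of all genes. In the pooled list at any rank it was 17 (48.6%, beside 35.4%).

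By the nearest TSS, 9 of 35 genes received an IDR summit (25.7%, interval 12.5 to 43.3%), beside 17.6% of all protein-coding genes. The top calls of the replicates gave 15 (42.9%), 12 (34.3%) and 12 (34.3%) in replicates 1, 2 and 3, beside 17.6%, 17.7% and 17.7%. The pooled list gave 29 (82.9%, beside 53.9%). At D and dan the summits counted by this rule lay 3149 to 15978 bp from the TSS. With start sites of protein-coding genes alone, the IDR count became 13, beside 19.4% of all protein-coding genes. The genes added were E(spl)m3-HLH, danr, insc and pros.

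**Figure D4:**
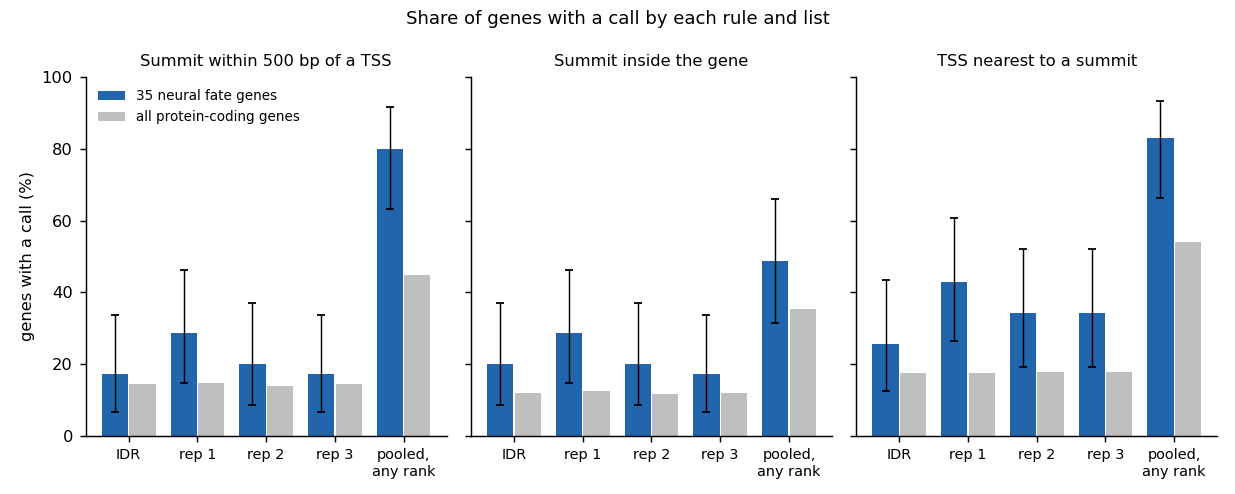
Share of genes (%) with a call by each of the 3 rules, for the 35 neural fate genes (blue, with exact 95% binomial intervals) and for all 13968 protein-coding genes (grey), in the IDR list, the top 4187 calls of each replicate and the pooled list at any rank. At start sites the IDR shares are 17.1% and 14.3%, and the pooled shares 80.0% and 44.8%.

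Placed on the genome, the 23 peaks were mostly intronic or intergenic. Within 500 bp of a TSS of any gene lay 6 of them, where 43.3% of all IDR peaks lie. Beyond that distance 12 were intronic, 4 intergenic and 1 in a 3′ UTR, while for all IDR peaks the shares were 39.7%, 14.1% and 0.860%. Their median distance to the nearest TSS of any gene was 1453 bp, beside 757 bp for all IDR peaks. The inside and nearest rules take in summits far from promoters, so this placement follows in part from how the peaks were assigned.

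Base composition at the 23 summits was like that of IDR peaks at large. The median A+T content within 50 bp was 69.3% (45.5 to 78.2%), beside 66.3% at all IDR peaks and 59.4% in windows 500 bp to either side of the 23. An A/T run of 10 bp or more was present in 14 of the 23 windows (60.9%), beside 47.1% of all IDR peaks and 30.4% of the side windows. The 8-base words that led in the other 4164 IDR peaks were all of A and T, among them AAAATATT, present in 5.28% of those peaks and 2.44% of their side windows. It was in 2 of the 23 neural peaks, at brat and D. Another such word, TATTTTAA (4.42% beside 1.65%), was in 3, at elav, brat and E(spl)mdelta-HLH. It stands in all 3 windows printed above, at elav as its reverse complement TTAAAATA.

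Binding-site words of the neural factors themselves were searched on both strands within 100 bp of the summit. The general E-box of bHLH proteins, CANNTG, was present in 11 of 23 peaks (47.8%), beside 61.1% of all IDR peaks. The E-box forms CAGCTG and CAGGTG, bound by proneural or Snail-family proteins and included in the first word, were in 0 of 23, beside 8.62% and 5.28%. The forms GTGGGAA and GTGAGAA of the site of Su(H), the nuclear effector of Notch, were also in 0 of 23, beside 2.29% and 2.32%. The words of Hairy and E(spl) proteins gave 0 for CACGTG (beside 2.17%), 0 for CACGCG (4.20%) and 2 for the N-box CACNAG (8.70%, beside 20.0%). Sox words were found in 3 peaks each, for ACAATG (13.0%, beside 11.9%) and ACAAAG (13.0%, beside 14.4%). The Grainyhead word AACCGG was in 3 (13.0%, beside 3.68%), all at pros or insc, and the POU-factor word ATGCAAA in 2 (8.70%, beside 7.17%). Neither the Prospero word TAAGACG (beside 0.908%), the Gcm word ATGCGGG (0.573%), the run AAAAAAA (20.5%) nor the Zelda word CAGGTAG (0.979%) was found. The width searched bears on these counts: within 200 bp of the summit AAAAAAA was in 8 of the 23 peaks (beside 35.1% of all IDR peaks), the N-box in 7 (beside 38.4%) and ACAAAG in 8 (beside 27.6%). At that width AACCGG was still in 3, beside 9.05%. Of general promoter words, GAGAG was in 8 peaks (34.8%, beside 25.4%), CTCTCT, which overlaps it, in 4 (17.4%, beside 13.0%) and TCGATA, the core of the DRE, in 2 (8.70%, beside 9.94%). With 23 peaks, a word held by few peaks in general can be missed by the small number alone, and a match is not a bound site.

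Further genes of the same processes were counted from a wider list of 84. An IDR peak lay at a TSS of 15 (17.9%), inside 23 (27.4%), nearest to the TSS of 29 (34.5%), and at 35 by any rule (41.7%), beside 14.3%, 11.9%, 17.6% and 22.3% of all protein-coding genes. Gene length, which bears on the count inside genes, was not taken into account for the wider list. Within it, proneural and Notch genes had a TSS peak in 8 of 32 cases, neuroblast genes in 3 of 28 and neuron and glia genes in 5 of 25, with numb in both of the first lists. Only 3 had a TSS peak among the 500 highest signals. They were moody, a receptor gene of the glial blood-brain barrier (rank 98, at -158 bp, ranks 69, 118 and 101 in the replicates), gro, for the corepressor of the E(spl) proteins, next to the E(spl) complex (rank 186, at -125 bp, ranks 159, 241 and 175), and numb, a Notch inhibitor segregated at division (rank 265, at -210 bp, ranks 235, 272 and 296).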

How the data were processed

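ChIP-seq peak lists of 3 replicates of CG12219-GFP embryos were used. Per the labels, coordinates are in dm6 and chromatin was sonicated, with a size range of 200 to 800 bp. Per the deposited file listing, each replicate list (30000 calls of peaks and background) was called against a control alignment, the pooled list on all 3 replicates, and the IDR list was derived from these 4. The sources used here do not give the aligner, the caller or the IDR threshold. Signal values are those the authors deposited, with no stated normalization, and served only to rank calls within a list. The −log10 q value as the authors deposited it only broke ties. The summit is the deposited interval start plus the offset.

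Annotation was Ensembl release 115 (BDGP 6.54), without transposable elements: 18277 genes and 23694 start sites on 7 chromosomes whose RefSeq sequence gave the bases. Python 3.11.15, numpy 2.4.6, pandas 2.3.3, scipy 1.17.1 and matplotlib 3.10.9 were used, and the assignment of summits and the motif search were tested on simulated data. Top calls are the 4187 highest-signal calls of a replicate, and summits within 250 bp were matched. Counts of genes are given with exact binomial (Clopper-Pearson) 95% intervals beside the share of all protein-coding genes, and no enrichment was tested. The genes, lists and words were chosen with earlier results of these data known. Every member is accounted for. Values are given in full for peaks at a TSS and for the strongest peak of each gene. Wider-list genes are named when their TSS peak ranked within 500, at most 10. Sequence is shown for the strongest peak of at most 10 genes, none on chromosome 2R. Windows that overlap a UTR or coding exon were also left out. The other alternatives tried were the signal threshold, replicate support, window, width of the motif search, matching distance and annotation.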

Additional observations from a re-analysis of the deposited data

How the results depend on the processing

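Of 76 alternatives, 58 left the value within 1.5 times the count given, the interval of the share or the spread between replicates. With any 1 replicate left out, counting IDR peaks among the top calls of both others, members with a peak at a TSS numbered 4 to 5 (beside 9.90 to 10.7% of all genes), inside the gene 6 to 6 (8.83 to 9.49%), nearest to the TSS 7 to 8 (12.8 to 13.8%), and by any rule 12 to 13 (16.4 to 17.7%). The 2093 IDR peaks with the highest signal left 3 members at a TSS (7.84% of all genes) and 9 by any rule (13.3%). A TSS window of 250 bp left 0 members, while 10.9% of all genes remained. Keeping the 8374 strongest pooled calls left 16 members at a TSS (24.1% of all genes). Restricting each replicate to its 2093 strongest calls gave 5, 3 and 4 members in replicates 1, 2 and 3 (beside 7.85%, 7.88% and 8.09% of all genes), and extending it to 8374 gave 19, 11 and 15 in replicates 1, 2 and 3, beside 24.9%, 24.5% and 23.4% of all genes. These settings hold fewer or more calls by construction. Matching summits within 100 bp moved the median rank to 1954 in replicate 2 and 1984 in replicate 3. Of 38 alternatives for the words searched, 31 stayed close. Within 50 bp of the summit CANNTG was in 5 of the 23 peaks (beside 36.6% of all IDR peaks), ACAAAG in 0 (7.14%) and CTCTCT in 1 (5.78%). Within 200 bp CTCTCT was in 9 (28.0%), and AAAAAAA, the N-box and ACAAAG moved as given with the words. No paired analysis was possible because there is 1 group. Counts of peaks without reads limit what can be said of genes with no call.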

Other observations

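Other stretches of neighbouring neural fate genes had pooled calls at 31.4 per 100 kb (nub to pdm2, 98.7 kb) and 32.9 per 100 kb (danr to dan, 54.7 kb), beside 21.8 per 100 kb over the 7 chromosomes. The nub to pdm2 stretch held 31 pooled calls and no IDR peak, and its best pooled call ranked 5515. The danr to dan stretch held 3 IDR peaks (5.48 per 100 kb) among 18 pooled calls. Over the 7 chromosomes there were 3.04 IDR peaks per 100 kb. In replicates 1, 2 and 3 the nub to pdm2 stretch had 22.3, 20.3 and 28.4 calls per 100 kb, beside 21.8 over the 7 chromosomes in each, so it was near that rate in replicates 1 and 2. The danr to dan stretch had 27.4, 25.6 and 29.2.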
